A study of Homo sapiens with 6 samples.

Results

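The genes described here are 10 genes of the immune checkpoint ligand system: CD274 (PD-L1) and PDCD1LG2 (PD-L2), the ligands of the inhibitory receptor PD-1 on T cells; CMTM6, a membrane protein that keeps PD-L1 on the cell surface; CD276 (B7-H3), VTCN1 (B7-H4), CD80 and CD86 of the B7 family; CD47, the signal that restrains phagocytosis; PVR (CD155), the ligand of TIGIT and CD226; and LGALS9 (galectin-9), a ligand of TIM-3. They were chosen by symbol, with earlier results of the same ZEB1-KO against WT contrast known, so their differences in this contrast are given as a description and support nothing further. All 10 symbols were among the 26334 in the deposited count table, and 5 of them (CD274, CD276, CD47, PVR and CMTM6) had enough counts to be among the 13659 genes tested. The other 5 were at or near 0 in most libraries.

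The cells were MiaPaCa2, a line derived from a human pancreatic ductal adenocarcinoma, and each bulk RNA-seq library came from 2000 lysed cells of a clone. The ZEB1-KO group was 3 clones grown from GFP-positive cells sorted after electroporation with a plasmid that carries Cas9, GFP and a guide against ZEB1, the zinc-finger transcription factor that represses epithelial programmes. The WT group was 3 clones sorted in the same way after the Cas9-GFP plasmid pSpCas9-2A-GFP, for which the labels name no guide, so both groups had been exposed to Cas9 and GFP. All 6 were grown in medium with 10% serum, and no immune cells and no cytokine are named in the labels. Each library is 1 clone, so the spread within a group is a spread between clones, and the labels give no culture day or library batch.

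Checkpoint ligands are surface or secreted proteins through which a tumour cell can dampen T cells, natural killer cells or macrophages that touch it. PD-L1 is the member best known in carcinomas: interferon-gamma raises its transcription through JAK kinases and IRF1, and its protein is held at the membrane by CMTM6 and removed by lysosomal and proteasomal routes. In human cancer cells ZEB1 and the miR-200 microRNAs that it represses have been linked to PD-L1, and ZEB1 binds E-boxes, short DNA elements in promoters. The libraries measure RNA, and surface protein was not measured.

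The promoters of 3 members are printed as examples whose windows hold different motifs: CD274 and PVR had more RNA in the ZEB1-KO clones and CD47 had less. Each is 300 bases (250 before and 50 after the gene start) from RefSeq on GRCh38.p14, 5′ to 3′ on the gene's strand, and capitals mark matches to the motifs searched. The CD274 window lies at chr9:5450292-5450591 (+), the PVR window at chr19:44643660-44643959 (+) and the CD47 window at chr3:108090982-108091281 (-).
CD274: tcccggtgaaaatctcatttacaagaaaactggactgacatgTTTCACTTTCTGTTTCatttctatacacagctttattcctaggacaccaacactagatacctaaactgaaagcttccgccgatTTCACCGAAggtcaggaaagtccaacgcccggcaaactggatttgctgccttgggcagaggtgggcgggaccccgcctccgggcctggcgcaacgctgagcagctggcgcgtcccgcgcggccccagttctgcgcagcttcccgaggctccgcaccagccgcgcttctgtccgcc
PVR: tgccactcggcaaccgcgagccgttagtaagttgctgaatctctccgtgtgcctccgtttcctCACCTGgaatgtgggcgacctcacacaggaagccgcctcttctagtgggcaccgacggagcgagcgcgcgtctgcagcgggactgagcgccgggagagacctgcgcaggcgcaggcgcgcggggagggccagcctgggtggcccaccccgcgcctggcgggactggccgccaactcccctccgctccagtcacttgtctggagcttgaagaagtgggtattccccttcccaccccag
CD47: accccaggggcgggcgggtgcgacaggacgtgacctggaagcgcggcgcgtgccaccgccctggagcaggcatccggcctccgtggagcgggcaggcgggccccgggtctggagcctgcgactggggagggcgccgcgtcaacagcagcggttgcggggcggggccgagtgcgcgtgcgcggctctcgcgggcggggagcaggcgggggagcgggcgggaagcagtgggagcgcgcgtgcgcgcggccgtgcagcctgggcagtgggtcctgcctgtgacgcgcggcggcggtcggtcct

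The motifs were searched on both strands. The first was the E-box CACCTG, to which ZEB1 binds. Other E-box sequences and shorter cores were not searched, so a window without CACCTG can still hold them. The others were the GAS element TTCNNNGAA, bound by STAT dimers, and the ISRE core, a pair of GAAA blocks with 2 bases between them, bound by interferon regulatory factors. The CD274 window held no CACCTG and 1 GAS match that starts 125 bases before the gene start. It also held 2 ISRE matches that overlap each other and start 208 and 202 bases before the gene start. The PVR window held 1 CACCTG, 187 bases before the start, and neither other motif, and the CD47 window held none of the 3. Over all 35116 RefSeq promoters of the same length, 20.6% held CACCTG, 7.66% the GAS element and 3.57% the ISRE core. Promoters were found for 9 of the 10 members, with 11 windows in all. Of these, 2 held CACCTG (the PVR window and the second window of CD86). The windows of CD276, which also had more RNA in the ZEB1-KO clones, are not printed and held no CACCTG. LGALS9 was the other member with an ISRE match, 9 bases before its start. Whether any of these motifs bears on the differences was not tested. The CD274 window was 57.3% G or C, the PVR window 67.3% and the CD47 window 79.0%, beside a median of 58.7% over all promoters.

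The targeted gene checks the labels. ZEB1 had 67, 140 and 369 counts in ZEB1-KO clones 1, 2 and 3, against 1486, 1011 and 830 in WT clones 1, 2 and 3. On the CPM scale, the count as a share of the TMM-scaled library size, it averaged 6.10 ± 4.67 in ZEB1-KO clones and 32.9 ± 1.54 in WT clones (SD, n = 3 each). The groups did not overlap, ZEB1-KO clone 3 kept the highest level of the edited clones at 11.5 CPM, and the log2 fold change was -2.43 (SE 0.49, edgeR quasi-likelihood test, adjusted p = 0.093). Without ZEB1-KO clone 3 the log2 fold change of ZEB1 was -3.27 (adjusted p = 0.0137), and over 20 other settings the adjusted p lay between 3.28e-05 and 0.278. An edited gene can still be transcribed, and counts over the whole gene do not show whether the deleted stretch is missing.

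Total counts were between 18909305 and 42876693 per library, and a floor of 3 counts was worth 0.0687 to 0.150 CPM. That floor reflects counting error and no other, because PCR copies were counted as separate reads. The keratins of the line were high in every library, with 32710, 83839 and 67995 KRT8 counts in ZEB1-KO clones and 31425, 27712 and 21602 in WT clones. CDKN2A, which this line lacks, had no counts in any library. Of 24 blood cell markers, between 10 and 15 were at 0 in each library, and CD3D, CD3E, MS4A1 and CD163 were at 0 in all 6. Others had counts in every library. CD68, highest in each ZEB1-KO clone, had 75, 118 and 217 counts there and 157, 69 and 43 in WT clones. CD14, highest in WT clone 1, had 44, 43 and 4 counts in ZEB1-KO clones and 487, 28 and 14 in WT clones. LYZ, highest in WT clones 2 and 3, had 30, 73 and 34 counts in ZEB1-KO clones and 72, 126 and 69 in WT clones. The summed level of the 24 markers was 8.42 to 11.1 CPM in ZEB1-KO clones and 7.58 to 19.3 CPM in WT clones, so the groups overlapped. The 14 endothelial and fibroblast markers were uneven. DCN and LUM were at 0 throughout, whereas RGS5, a pericyte marker, made up most of the summed level, which reached 2166 to 3099 CPM in ZEB1-KO clones and 905 to 12059 CPM in WT clones. COL3A1 had 1196, 25 and 188 counts in ZEB1-KO clones and 23, 597 and 281 in WT clones. EMCN had 4, 9 and 108 counts in ZEB1-KO clones and 1883, 5 and 1719 in WT clones, which overlapped (log2 fold change -4.87, edgeR adjusted p = 0.197, and -7.44 without ZEB1-KO clone 3). The part of these markers in the results was not tested.

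**Figure D1:**
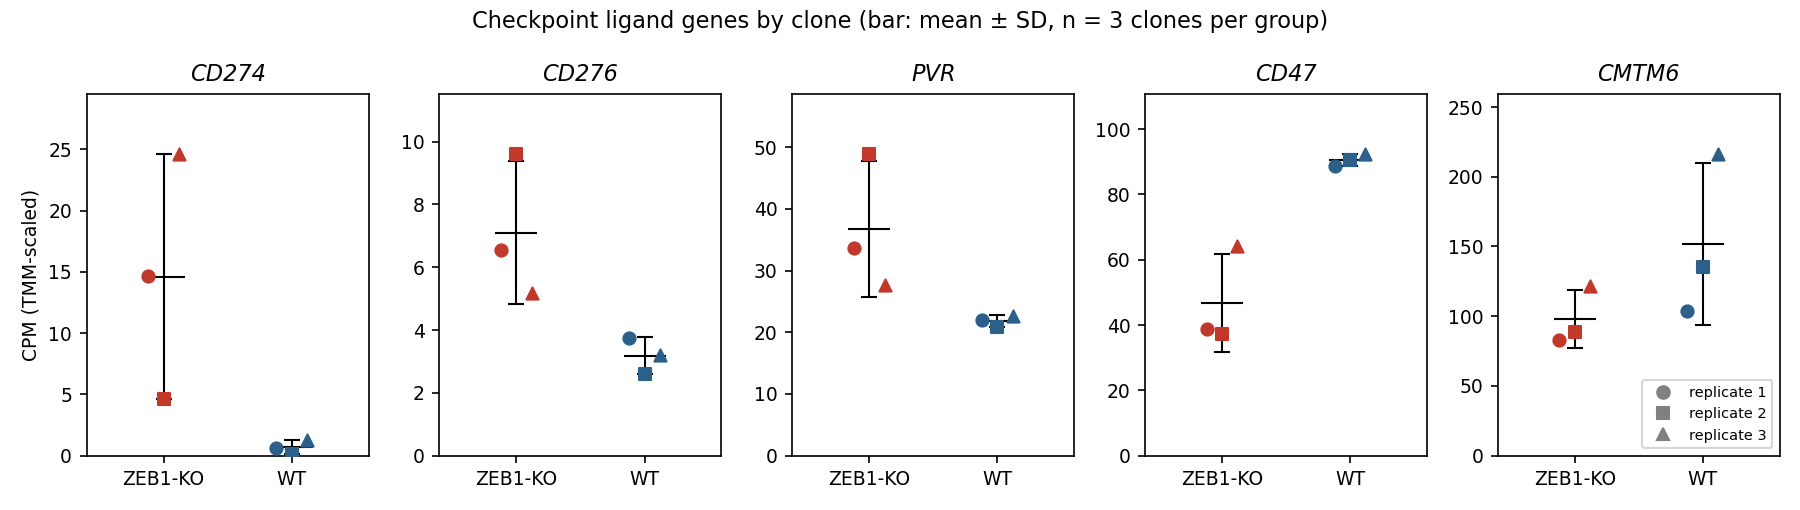
Level of the 5 tested checkpoint genes in each clone, in CPM of the TMM-scaled library (y axes start at 0 and differ between panels), with ZEB1-KO clones on the left and WT clones on the right. Horizontal lines are means and vertical bars are SDs over 3 clones, and the shapes mark the replicate number. The ZEB1-KO clones lie above the WT clones for CD274, CD276 and PVR and below them for CD47, and the groups overlap for CMTM6.

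CD274, the gene of PD-L1, was the member with the largest difference. It had 293, 186 and 791 counts in ZEB1-KO clones 1, 2 and 3, against 29, 5 and 31 in WT clones 1, 2 and 3. As CPM these were 14.6, 4.59 and 24.6 in ZEB1-KO clones and 0.664, 0.154 and 1.26 in WT clones. Every ZEB1-KO clone stood above every WT clone. Among ZEB1-KO clones, clone 2 was the lowest and clone 3, which kept the most ZEB1, was the highest. The means were 14.6 ± 10.0 CPM in ZEB1-KO clones and 0.691 ± 0.551 CPM in WT clones (SD, n = 3 each). The clones also differed widely among themselves, with a ratio of highest to lowest of 5.36 among ZEB1-KO clones and 8.14 among WT clones.

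The log2 fold change of CD274 was 4.42 (SE 0.82, 95% interval 2.53 to 6.31), that is 21.4-fold with an interval of 5.79 to 79.1. Its p was 0.000583, which placed it 87th of all genes tested, and its adjusted p, by the quasi-likelihood test of edgeR, was 0.0885, above the threshold of 0.05. Over 20 other settings the log2 fold change lay between 2.41 and 5.11 and the adjusted p between 9.62e-09 and 0.224. It passed 0.05 in 7 of these settings: the likelihood ratio test (6.4e-05), DESeq2 (9.62e-09), edgeR's exact test (0.000107), no filter (0.0213), both filtered TPM forms (0.0494 and 0.0427) and the replicate block (0.016). Without ZEB1-KO clone 3 the log2 fold change was 3.81, and without WT clone 3 it was 5.11. The lowest value, 2.41, was on log2(TPM + 1), where the added 1 exceeds the WT values of 0.0543 to 0.477 TPM. On log2(TPM + 0.1) the difference was 4.11. The authors' deposited table gives 4.40 with an adjusted p of 0.000158, from a likelihood ratio test. Because each library pools 2000 cells, more cells with the transcript and more transcript per cell cannot be told apart.

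PDCD1LG2, which encodes the other PD-1 ligand and lies next to CD274 on chromosome 9, stayed near the floor. It had 1, 6 and 13 counts in ZEB1-KO clones 1, 2 and 3 and 2, 0 and 0 counts in WT clones 1, 2 and 3. ZEB1-KO clone 3, which held the most CD274, also held the most PDCD1LG2, at 0.405 CPM. The groups are not separated beyond counting error, since ZEB1-KO clone 1 (1 count, 0.0499 CPM) and WT clone 1 (2 counts, 0.0458 CPM) were both under the floor of 3 counts. The gene did not pass the filter on low counts and has no fold change.

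CMTM6, the partner that protects PD-L1 from degradation, was the most abundant member. It had 83.2, 88.9 and 122 CPM in ZEB1-KO clones 1, 2 and 3, against 103, 135 and 216 CPM in WT clones 1, 2 and 3. The groups overlapped, because ZEB1-KO clone 3 exceeded WT clone 1. The means were 98.0 ± 20.9 CPM in ZEB1-KO clones and 152 ± 58.2 CPM in WT clones (SD, n = 3 each), and the log2 fold change was -0.63 (SE 0.30, 95% interval -1.33 to 0.07, edgeR adjusted p = 0.319). WT clone 3 carried much of this difference: without it the log2 fold change was -0.28.

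CD276 encodes B7-H3, a B7-family protein whose receptor on T cells is not settled. It had 131, 389 and 166 counts in ZEB1-KO clones 1, 2 and 3, against 164, 84 and 79 counts in WT clones 1, 2 and 3. As CPM these were 6.54, 9.61 and 5.17 in ZEB1-KO clones and 3.76, 2.59 and 3.20 in WT clones, and the groups did not overlap. The means were 7.10 ± 2.27 CPM and 3.18 ± 0.583 CPM in ZEB1-KO and WT clones (SD, n = 3 each). The log2 fold change was 1.16 (SE 0.34, 95% interval 0.38 to 1.94), or 2.23-fold, with an edgeR adjusted p of 0.144. Without ZEB1-KO clone 2, the highest, the log2 fold change was 0.87 (edgeR adjusted p = 0.301). DESeq2 gave an adjusted p of 0.0296, and the authors' deposited table gives 1.15 with an adjusted p of 0.0928.

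The other B7-family members were almost silent. CD80, a ligand of both CD28 and CTLA-4, had 0, 4 and 2 counts in ZEB1-KO clones and 1, 0 and 0 counts in WT clones. Its exons overlap those of TIMMDC1 on the opposite strand, a gene with 4906, 8781 and 7713 counts in ZEB1-KO clones and 15857, 12088 and 10994 in WT clones, and the libraries do not record strand. CD86, which binds the same receptors, had no counts in ZEB1-KO clones and 1 count in WT clone 2. VTCN1, which encodes B7-H4, had no counts in any of the 6 libraries. LGALS9, the galectin that binds TIM-3, had no counts in ZEB1-KO clones and 1 count in WT clone 1, and its near copies LGALS9B and LGALS9C had none. VTCN1, LGALS9 and CD86 reached 3 counts in no library, as did 34.6% of all symbols in the table.

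CD47, which binds SIRP-alpha on macrophages, was the member with less RNA in the ZEB1-KO clones and no overlap. It had 776, 1512 and 2058 counts in ZEB1-KO clones 1, 2 and 3, against 3866, 2940 and 2281 counts in WT clones 1, 2 and 3. As CPM these were 38.7, 37.3 and 64.1 in ZEB1-KO clones, against 88.6, 90.7 and 92.4 in WT clones. The WT clones lay close together, whereas ZEB1-KO clone 3, which kept the most ZEB1, stood between the other edited clones and the WT clones. The means were 46.7 ± 15.0 CPM in ZEB1-KO clones and 90.5 ± 1.93 CPM in WT clones (SD, n = 3 each). The log2 fold change was -0.95 (SE 0.25, 95% interval -1.53 to -0.38, edgeR adjusted p = 0.123), and -1.25 without ZEB1-KO clone 3. DESeq2 gave an adjusted p of 0.0332, and the authors' deposited table gives -0.96 with an adjusted p of 0.0464.

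PVR encodes the nectin-like protein CD155, which inhibits T and natural killer cells through TIGIT and activates them through CD226. It had 675, 1981 and 888 counts in ZEB1-KO clones 1, 2 and 3, against 962, 676 and 560 counts in WT clones 1, 2 and 3. As CPM these were 33.7, 48.9 and 27.6 in ZEB1-KO clones and 22.0, 20.9 and 22.7 in WT clones, with no overlap. ZEB1-KO clone 2 was the highest and the WT clones were nearly equal. The means were 36.8 ± 11.0 CPM in ZEB1-KO clones and 21.9 ± 0.931 CPM in WT clones (SD, n = 3 each). The log2 fold change was 0.75 (SE 0.26, 95% interval 0.16 to 1.34), or 1.68-fold, with an edgeR adjusted p of 0.188, and it was 0.49 without ZEB1-KO clone 2. Exons of PVR overlap those of CEACAM19 on the same strand, which had between 7 and 10 counts in ZEB1-KO clones and between 2 and 7 in WT clones.

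None of the 5 tested members was called at an adjusted p below 0.05 by edgeR's quasi-likelihood test, which called 24 of all 13659 genes, or 0.176%. At an unadjusted p below 0.05 it was 4 of 5 members (CD274, CD276 and PVR higher, CD47 lower), beside 17.7% of all genes. The groups did not overlap for the same 4, beside 23.6% of all genes. The likelihood ratio test called CD274, beside 4.52% of all genes. DESeq2 called CD274 and CD276 higher and CD47 lower, beside 7.12% of the 13135 genes it gave an adjusted p. In the authors' deposited table CD274 and CD47 have an adjusted p below 0.05, beside 4.75% of its 11013 genes. The median log2 fold change of the tested members was 0.75, and that of all genes was -0.01. CD274 was tested because of its ZEB1-KO clones, since WT clone 2 had 5 counts and the filter asks for about 10 in 3 libraries. As the members were proposed with these differences known, nothing is read from these shares.

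**Figure D2:**
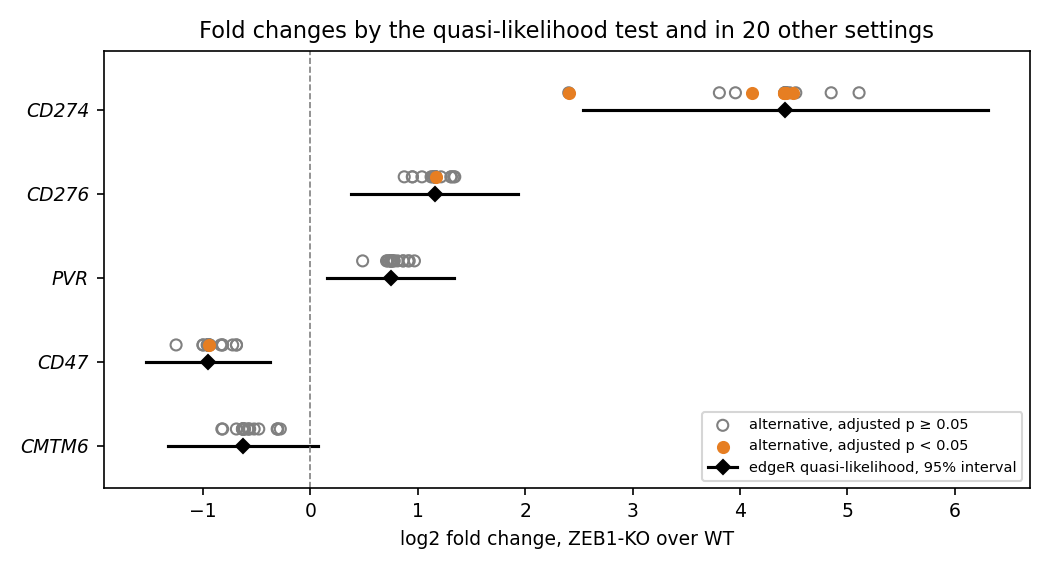
Log2 fold change (ZEB1-KO over WT) of the 5 tested members. Black diamonds and bars give the edgeR quasi-likelihood estimate with its 95% interval, and circles above them give 20 other settings, filled in orange where the adjusted p was below 0.05. CD274 stays at or above 2.41 in these settings and is orange in 7. The 2.41 is on log2(TPM + 1), where the added 1 exceeds the WT values. CD276 and CD47 are orange in 1 setting each, and no circle crosses 0 for any of the 5.

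Levels of different genes were compared on the deposited TPM scale, which divides by length. In ZEB1-KO clones the order was CMTM6 at 49.6 ± 9.99 TPM, CD47 at 14.8 ± 4.39, PVR at 10.4 ± 3.86, CD274 at 6.60 ± 4.39 and CD276 at 3.62 ± 1.41 TPM (SD, n = 3 each). CMTM6 stood apart from CD47, while each later gene overlapped the next. In WT clones the order was CMTM6 at 63.3 ± 23.3 TPM, CD47 at 24.0 ± 1.84, PVR at 5.08 ± 0.592, CD276 at 1.34 ± 0.362 and CD274 at 0.270 ± 0.211 TPM (SD, n = 3 each), and no neighbours in this order overlapped. CD274 was thus last of the 5 in WT clones, where its values were 0.279, 0.0543 and 0.477 TPM. It stood above CD276 in the mean of ZEB1-KO clones, where its values were 6.44, 2.30 and 11.1 TPM, and there its range overlapped those of both PVR and CD276. In ZEB1-KO clone 2, CD276 at 5.21 TPM exceeded CD274 at 2.30 TPM, and in the other edited clones CD274 was the higher.

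**Figure D3:**
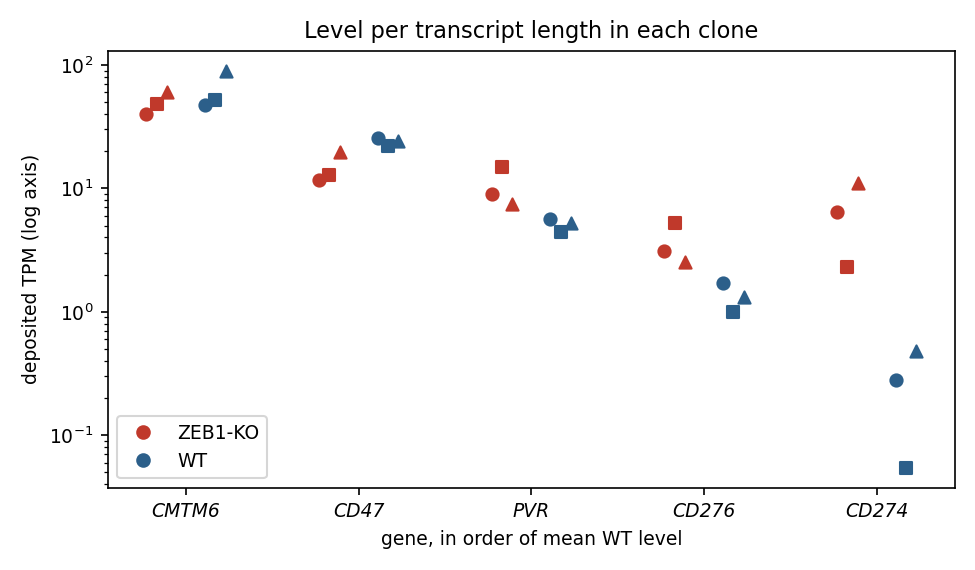
Deposited TPM of the 5 tested members in each clone on a log axis, with genes in the order of their mean WT level and ZEB1-KO clones left of WT clones. CD274 is the lowest gene in the WT clones, between 0.0543 and 0.477 TPM, and lies between 2.30 and 11.1 TPM in the ZEB1-KO clones. CMTM6 is the highest gene in all 6.

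Across the 6 libraries the members fell into patterns, given as a description because the points share the group difference. On log2 CPM, CD276 and PVR followed each other (Pearson r = 0.968, n = 6 libraries) and both ran opposite to CD47 (r = -0.941 and -0.937). CD274 was less tied to them, with r = 0.727 to CD276, 0.602 to PVR and -0.698 to CD47. ZEB1-KO clone 2 was the highest for CD276 and PVR and the lowest edited clone for CD274, and ZEB1-KO clone 3 was the lowest edited clone for CD276 and PVR and the highest for CD274. CD274 and CMTM6, its protein's stabiliser, had r = -0.403, and CMTM6 was nearer to CD47 (r = 0.750).

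Among 11496 tested genes with a mean of at least 1 CPM, those most like CD274 over the 6 libraries were MAPKAPK5 (r = 0.994), ZNF77 (0.990) and RNASEH1-AS1 (0.989). Those most opposite were XPC (-0.996), ZC3H12D (-0.993) and NRBP2 (-0.987). For PVR the nearest were ASNA1 (0.996), RAB5B (0.994) and NT5DC3 (0.993), and the most opposite were COX7A2L (-0.994), CRLS1 (-0.992) and GPATCH2L (-0.992). For CD47 the gene nearest in pattern was ZEB1 (r = 0.997), followed by NCEH1 (0.996) and REV1 (0.996), with SLC6A9 (-0.990) and RAPGEFL1 (-0.989) at the other end. ZEB1 is the edited gene, so its r to CD47 shares the group difference and cannot show that CD47 follows its level. ZEB1-KO clone 3 was the highest edited clone for both, but ZEB1-KO clones 1 and 2 were in opposite order. WT clone 1 was the highest WT clone for ZEB1 and the lowest for CD47. A relation within the groups was not tested. With 6 libraries such values are common: 62 genes had an r above 0.95 to CD274, 192 to PVR and 118 to CD47.

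The neighbours of CD274 on chromosome 9 were followed in the same fit, as a description. Of 21 annotated protein-coding genes within 1 Mb other than the members, 15 were tested, 7 with a positive and 8 with a negative log2 fold change, and their median was -0.02. None was called by the edgeR quasi-likelihood test (beside 0.176% of all genes). At an unadjusted p below 0.05, 2 were higher and 1 lower (beside 17.7% of all genes). Of the 15, 13 lay between -1 and 1, a range that was not counted over all genes. Nothing particular to the neighbours is read from these shares. JAK2, the kinase that relays interferon-gamma signals, had 102, 227 and 304 counts in ZEB1-KO clones and 111, 161 and 126 counts in WT clones (log2 fold change 0.68, SE 0.39). The genes adjacent to CD274 and PDCD1LG2 among those tested, PLGRKT and RIC1, had log2 fold changes of 0.02 and -0.02. RLN2, which encodes the hormone relaxin-2, had the largest difference of the 15. It had 141, 1 and 373 counts in ZEB1-KO clones and 9, 15 and 6 in WT clones. Its log2 fold change was 4.34 (adjusted p = 0.171), or 3.50 without ZEB1-KO clone 3 and 4.93 without ZEB1-KO clone 2. The groups overlapped because ZEB1-KO clone 2 had 1 count, and the edited clones were ordered as for CD274. The groups did not overlap for 3 of the 15 (RCL1, UHRF2 and KIAA2026), beside 23.6% of all genes. RCL1 had a log2 fold change of 0.73, UHRF2 had -0.70 and KIAA2026 had -0.52. SLC1A1 had -1.24, which was -3.70 without ZEB1-KO clone 3 and -0.62 without ZEB1-KO clone 2.

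**Figure D4:**
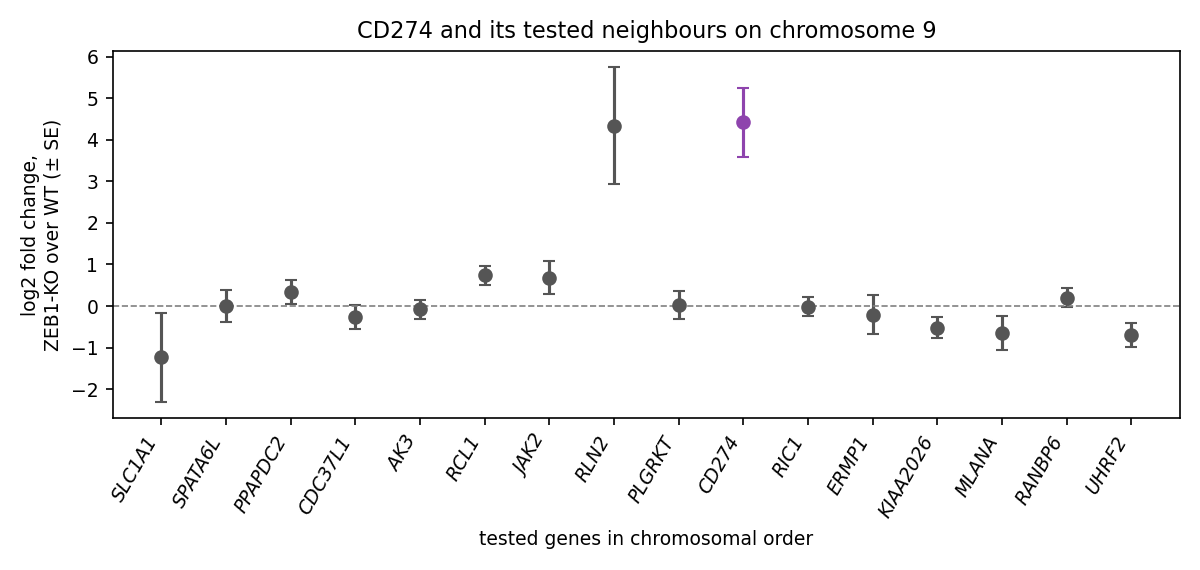
Log2 fold change (ZEB1-KO over WT, bars ± SE) of CD274, in purple, and the 15 tested genes within 1 Mb of it on chromosome 9, in chromosomal order. CD274 at 4.42 and RLN2 at 4.34 stand above the other neighbours, which lie between -1.24 and 0.73.

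The genes around the members in the pathway were followed in 11 lists, which were chosen with earlier results known. Of 176 listed genes in the table, 128 were tested, each counted once. The edgeR quasi-likelihood test called 0 of them, the likelihood ratio test called 8 higher and 7 lower (beside 4.52% of all genes), and DESeq2 called 10 higher and 10 lower of the 127 it covered (beside 7.12%). At an unadjusted p below 0.05 they were 18 higher and 20 lower, or 29.7%, beside 17.7% of all genes, and their median log2 fold change was 0.05. The share given in brackets for each list at that threshold stands beside the same 17.7%, and nothing particular to a list is read from it. All adjusted p-values given for these genes are from edgeR's quasi-likelihood test.

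Upstream of PD-L1, the interferon and JAK-STAT genes held differences in both directions. Of 18 tested, 1 was higher and 4 were lower at an unadjusted p below 0.05 (27.8%). The log2 fold change was positive for 6 and negative for 12, beside 6753 and 6906 of all genes, and the median was -0.23. IRF1, the factor that binds interferon-response elements of the CD274 promoter, had 13.4, 22.2 and 22.7 CPM in ZEB1-KO clones, against 9.74, 3.52 and 7.41 CPM in WT clones. The groups did not overlap, and the log2 fold change was 1.49 (adjusted p = 0.127). STAT3, a transcription factor downstream of cytokine receptors, averaged 39.0 ± 5.76 CPM in ZEB1-KO clones and 90.8 ± 41.1 CPM in WT clones (SD, n = 3 each), with a log2 fold change of -1.22 (adjusted p = 0.123). IFNGR1 and JAK1 had log2 fold changes of 0.03 and -0.49, and PTPN1, a phosphatase of JAK kinases, had -0.75 (adjusted p = 0.207).

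Of 23 other transcriptional regulators of PD-L1, 5 were higher and 4 lower at an unadjusted p below 0.05 (39.1%), with a median of 0.12. The 4 listed AP-1 subunits did not share a direction: JUNB had a log2 fold change of 1.98 (adjusted p = 0.0761), FOS had 2.20 (adjusted p = 0.129), FOSL1 had 0.37 (adjusted p = 0.665) and JUN had -2.06 (adjusted p = 0.0919). Groups did not overlap for JUNB, FOS and JUN, and FOSL1 was -0.10 without ZEB1-KO clone 2. FOS was 2.94 without WT clone 2. EGFR, a growth factor receptor whose signalling raises PD-L1, had 2.69, 5.29 and 4.26 CPM in ZEB1-KO clones and 10.6, 13.6 and 8.87 CPM in WT clones, with a log2 fold change of -1.43 (adjusted p = 0.110). The miR-200 list had 6 symbols in the table, all at 0 in the 6 libraries, in which poly(A) RNA was copied and mature microRNAs are not measured.

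Among 24 tested genes of PD-L1 protein stability and trafficking, 3 were higher and 1 lower at an unadjusted p below 0.05 (16.7%), with a median of 0.05. ZDHHC9, a palmitoyltransferase that acts on PD-L1, had a log2 fold change of 0.79 (adjusted p = 0.193), and EPN1, an endocytic adaptor, had 1.52 (adjusted p = 0.234). EPN1 had 39, 132 and 33 counts in ZEB1-KO clones and 45, 9 and 21 in WT clones, and its groups overlapped in CPM. Of 5 tested CMTM relatives, 2 were lower and 0 higher at an unadjusted p below 0.05 (40%), with a median of 0.03. CMTM7 had a log2 fold change of -1.09 (adjusted p = 0.139) and CMTM3 had -0.85 (adjusted p = 0.131). CMTM7 is adjacent to CMTM6 on chromosome 3, with exons that overlap on the opposite strand, so unstranded reads there cannot be assigned to one of them. CMTM4, which can stand in for CMTM6 in holding PD-L1, had 25.9, 26.3 and 37.0 CPM in ZEB1-KO clones and 18.9, 20.2 and 27.9 CPM in WT clones, which overlapped (log2 fold change 0.41, adjusted p = 0.438).

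The relatives of PVR included a gene with a larger difference than PVR itself. PVRL2 (nectin-2, CD112), which binds TIGIT, PVRIG and CD226, had 203, 909 and 225 counts in ZEB1-KO clones 1, 2 and 3, against 139, 87 and 96 counts in WT clones 1, 2 and 3. It averaged 13.2 ± 8.17 CPM in ZEB1-KO clones and 3.25 ± 0.606 CPM in WT clones (SD, n = 3 each), with no overlap and a log2 fold change of 2.02 (adjusted p = 0.101), which was 1.39 without ZEB1-KO clone 2. ZEB1-KO clone 2 was the highest for both PVR and PVRL2. Of the 6 nectins and nectin-like genes tested, PVRL2 alone had an unadjusted p below 0.05 (16.7%). PVRL1 had a log2 fold change of 0.92 (adjusted p = 0.336), or 0.32 without ZEB1-KO clone 2. CADM2, an adhesion molecule, had -1.25 (adjusted p = 0.301), or -0.66 without WT clone 2, and the median of the list was 0.11.

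**Figure D5:**
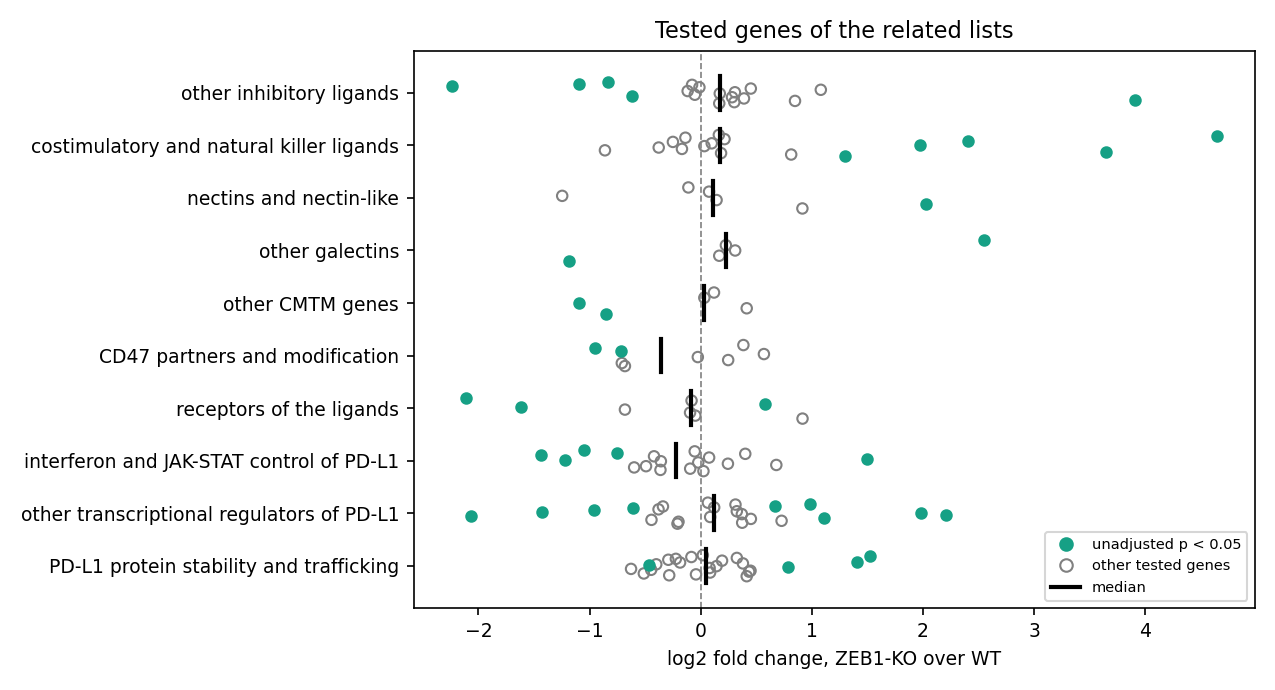
Log2 fold change (ZEB1-KO over WT) of each tested gene in 10 related lists, 1 point per gene, filled where the unadjusted p was below 0.05, with the list median as a bar. Medians lie between -0.35 and 0.23 and each list holds genes on both sides of 0.

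Of 18 tested genes in the list of other inhibitory ligands, which also holds adhesion and antigen presentation genes, 1 was higher and 4 were lower at an unadjusted p below 0.05 (27.8%), with a median of 0.17. CEACAM1, an inhibitory adhesion molecule, had 152, 49 and 33 counts in ZEB1-KO clones and 16, 5 and 2 counts in WT clones, with a log2 fold change of 3.91 (adjusted p = 0.113) and no overlap. ZEB1-KO clone 1 stood apart at 7.58 CPM: without it the log2 fold change was 2.39, and without WT clone 1 it was 4.71. NT5E (CD73), the ectoenzyme that makes adenosine, averaged 44.3 ± 11.5 CPM in ZEB1-KO clones and 209 ± 158 CPM in WT clones (SD, n = 3 each), and its log2 fold change was -2.24 (adjusted p = 0.115), or -1.50 without WT clone 3, the highest at 376 CPM. CD58, the costimulatory ligand of CD2 on T cells, averaged 22.9 ± 4.58 CPM in ZEB1-KO clones and 49.0 ± 2.86 CPM in WT clones (SD, n = 3 each), and its log2 fold change was -1.09 (adjusted p = 0.0942). Of 16 tested costimulatory and natural killer ligands, 5 were higher and 0 lower at an unadjusted p below 0.05 (31.2%), with a median of 0.17. ULBP3, a ligand of the activating receptor NKG2D, had a log2 fold change of 2.41 (adjusted p = 0.114), and ICOSLG, the ligand of ICOS, had 1.30 (adjusted p = 0.142). For ULBP3 the WT clones were near the floor, with 9, 2 and 5 counts, against 24, 37 and 15 in ZEB1-KO clones. TNFSF10, the death ligand TRAIL, had 16, 197 and 769 counts in ZEB1-KO clones, against 3, 7 and 24 counts in WT clones, so the groups overlapped in CPM. Its log2 fold change was 4.64 (adjusted p = 0.134), but 2.85 without ZEB1-KO clone 3 and 6.15 without WT clone 3.

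LGALS9 was not detectable at this depth, but other galectin-list genes were abundant. Of 5 tested, 1 was higher and 1 lower at an unadjusted p below 0.05 (40%), with a median of 0.23. LGALS1, a galectin secreted by many tumours, averaged 802 ± 145 CPM in ZEB1-KO clones and 1819 ± 378 CPM in WT clones (SD, n = 3 each), and its log2 fold change was -1.18 (adjusted p = 0.0942). LGALS3BP, a glycoprotein that binds galectins and is not one itself, had a log2 fold change of 2.55 (adjusted p = 0.214), or 4.09 without WT clone 1, and LGALS8 had 0.31 (adjusted p = 0.522).

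Around CD47, 8 partner and modification genes were tested, of which 2 were lower and 0 higher at an unadjusted p below 0.05 (25%), with a median of -0.35. These were the integrin subunits ITGAV, with a log2 fold change of -0.72 (adjusted p = 0.143), and ITGB1, with -0.95 (adjusted p = 0.174). UBQLN1, a cytoplasmic protein that binds CD47, had 0.38 (adjusted p = 0.333). Of the receptors that the ligands bind on other cells, 8 of 19 listed genes were tested, with 1 higher and 2 lower at an unadjusted p below 0.05 (37.5%) and a median of -0.09. RGMB, a co-receptor of bone morphogenetic proteins that binds PD-L2, averaged 8.17 ± 1.22 CPM in ZEB1-KO clones and 25.1 ± 2.05 CPM in WT clones (SD, n = 3 each), and its log2 fold change was -1.62 (adjusted p = 0.0544). TNFRSF9 had 1.90, 1.24 and 1.43 CPM in ZEB1-KO clones and 15.5, 1.79 and 2.23 CPM in WT clones. Its log2 fold change was -2.11 (adjusted p = 0.223), and -0.39 without WT clone 1. P4HB, a disulphide isomerase, had 0.58 (adjusted p = 0.229).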

How the data were processed

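Per the file headers, the deposited tables hold unnormalized counts by symbol, TPM for 11013 genes, and edgeR results (log2 fold change, p-value, adjusted p-value, log2 CPM and a score from the likelihood ratio). TopHat2 2.1.0, HTSeq 0.6.1 and edgeR 3.2.2 are named with builds hg19 and GRCh37, per the submitters' processing notes. Their settings, and the gene lengths used for TPM, are not given in the sources used. Libraries were SMART-Seq2, per the labels' protocols, without strand or molecular identifiers.

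The deposited counts of all 6 libraries were fitted here with edgeR 4.0.16 in R 4.3.3: filterByExpr (minimum count 10, total 15), TMM scaling, group alone, glmQLFit and glmQLFTest, as a 2-sided test adjusted by Benjamini-Hochberg over 13659 genes, called below 0.05. Residual degrees of freedom were 4 and prior ones 4.35. CPM uses TMM-scaled library sizes, and log2 CPM for correlations has a prior count of 2. The lowest chi-square per gene between libraries was 127, far above sampling noise, so each counted as its own sample. The procedure was also run on simulated counts with planted differences, as a check of the code that does not bear on the members' results. The 20 alternatives were other scaling (RLE, upper quartile, library size alone), other filters (1 CPM in 3 libraries, none), robust estimation, edgeR's likelihood ratio and exact tests, DESeq2 1.42.0, limma-voom and limma 3.58.1 on log2(TPM + 1) or log2(TPM + 0.1), the replicate block, and each library left out.

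The members and lists were chosen with earlier results of these data known. Beside the members and ZEB1, up to 3 genes of lowest p per list, neighbours of CD274, and the 3 genes most like and most unlike CD274, PVR and CD47 are named; FOS, FOSL1, EMCN, COL3A1, IFNGR1 and JAK1 were added after their values were seen, as were the GAS and ISRE motifs. RefSeq tables on GRCh38.p14 gave the promoters, the order of neighbouring genes and the 1 Mb window; GENCODE exons gave the overlaps. With 3 clones against 3, an exact permutation test of a single value could not go below 0.1. Some genes that these rules name are not reported here.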

Additional observations from a re-analysis of the deposited data

How the results depend on the processing

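No member reversed its direction in any of the 20 other settings. By edgeR's quasi-likelihood test 0 tested members were called higher and 0 lower. The number called higher was 1 with no filter, with the likelihood ratio test, with edgeR's exact test, with log2 of TPM plus 1 or plus 0.1 at a mean of at least 1, and with the replicate block, in each case CD274, and 2 with DESeq2 (CD274 and CD276). The number called lower was 1 with DESeq2 (CD47). In the remaining settings both numbers were 0, and without each library in turn they ranged from 0 to 0. The cause of these differences was not tested.

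Without each library in turn, the log2 fold change of CD274 ranged from 3.81 to 5.11 with an adjusted p of 0.0867 to 0.224. Of 64 other genes recomputed in each setting, 5 changed sign somewhere. When a library was left out, PLGRKT ranged from -0.22 to 0.41, FOSL1 from -0.10 to 0.70 and IFNGR1 from -0.15 to 0.22. RIC1 was 0.14 with library size alone, 0.20 on TPM plus 1 with or without a filter, 0.25 on TPM plus 0.1, and -0.11 to 0.064 when a library was left out. REV1 was 0.040 on TPM plus 1 with or without a filter and 0.044 on TPM plus 0.1. The cause was not tested. Scaling by library size alone moved the median log2 fold change of all genes to 0.14, against -0.01 with TMM.

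The labels do not say whether replicate numbers pair the clones. Same-numbered deviations from the group means correlated at 0.022, 0.0071 and 0.22, and only clone 3 correlated best with its own number. With 3 clones per group these values cannot show whether the clones were paired. The replicate block gave CD274 a log2 fold change of 4.49 (adjusted p = 0.016). Depth limits PDCD1LG2, CD80, CD86, LGALS9 and VTCN1, which are under or near 3 counts in most libraries, and the CD274 level of WT clones, which have 5 to 31 counts. Values are RNA of 1 line, and each clone is its own expansion.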
